A study of Mus musculus with 10 samples.

Results

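The 10 genes analysed belong to the leukotriene and prostaglandin pathway and were followed in the DNA methylome of the mouse lung. They are Alox5, Alox5ap, Ltc4s, Lta4h and Cysltr2 on the leukotriene side, and Ptgs1, Ptgs2, Hpgds, Ptgdr2 and Ptger4 on the prostaglandin side. Their members in the data were the 1000 bp windows, stepped by 500 bp, that overlapped a gene's RefSeq span extended by 5 kb on each side, which gave 157 of 446336 windows in all. Lung DNA of female BALB/c mice, bought at 8 weeks of age, was captured, bisulfite converted and sequenced (Methyl-seq), and the methylation level of a window was the share of its CpG calls that were methylated. The groups compared were saline mice (n = 3), OVA-induced mice (n = 3), sensitized with 50 µg and challenged intranasally with 25 µg of ovalbumin on 4 days from day 12, and DSE-treated mice (n = 4), which went through the same induction and received 200 mg/kg of a Descurainia sophia seed extract by mouth from day 9 to day 15. The DSE-treated mice carry the name Herb in the sample labels. OVA induction models allergic airway inflammation over days rather than chronic asthma, and each library came from whole lung, so leukocytes, airway and alveolar epithelium and vessels were mixed in 1 measurement.

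Arachidonic acid freed from membranes is the substrate of both branches. In the leukotriene branch the enzyme encoded by Alox5, held at the nuclear membrane by the activating protein of Alox5ap, makes leukotriene A4, which Ltc4s joins to glutathione to give the cysteinyl leukotrienes, and which Lta4h hydrolyses to the leukocyte attractant leukotriene B4. In the prostaglandin branch the cyclooxygenases of Ptgs1 and Ptgs2 make prostaglandin H2, from which Hpgds makes prostaglandin D2, while Cysltr2, Ptgdr2 and Ptger4 encode receptors for cysteinyl leukotrienes, prostaglandin D2 and prostaglandin E2. Mast cells, eosinophils and macrophages are known sources of these lipids in allergic lungs, where they contract airway muscle and draw in leukocytes.

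The 10 genes held between 3 windows (Cysltr2 and Ptgs2) and 36 windows (Alox5ap). By position, 35 windows lay at a promoter, within 1000 bp of a start site, and 31 overlapped an exon. Of the others, 57 lay elsewhere in the span and were counted as introns, 12 lay upstream and 22 downstream of the span. Cysltr2 and Hpgds had no promoter window. Each mouse had 143224 to 193373 calls over these windows, of 306656737 to 410836272 in all, and 6 windows had under 20 calls in some mouse. Neighbouring windows share bases, and 8 windows held the same calls as the window before them, so windows of a gene are not independent.

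Sequences are shown for Ptgs2, whose promoter windows had the lowest mean in saline, and for Ptgdr2, which had the highest after Alox5ap. They are also shown for 3 intron stretches from windows whose changes are described further on. Each CpG, the dinucleotide that can be methylated, is in capitals. Promoters are the 250 bases before the start site from RefSeq (GRCm38) and intron stretches the 300 bases with the most CpGs of their window, all read 5′ to 3′ on the strand of the gene.
Ptgs2 promoter, chr1:150099781-150100030, plus strand: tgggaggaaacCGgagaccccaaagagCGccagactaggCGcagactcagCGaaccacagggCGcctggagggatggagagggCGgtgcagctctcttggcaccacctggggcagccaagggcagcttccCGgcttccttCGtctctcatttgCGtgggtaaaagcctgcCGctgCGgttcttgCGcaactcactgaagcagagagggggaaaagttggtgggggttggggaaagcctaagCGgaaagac
Ptgdr2 promoter, chr19:10936910-10937159, plus strand: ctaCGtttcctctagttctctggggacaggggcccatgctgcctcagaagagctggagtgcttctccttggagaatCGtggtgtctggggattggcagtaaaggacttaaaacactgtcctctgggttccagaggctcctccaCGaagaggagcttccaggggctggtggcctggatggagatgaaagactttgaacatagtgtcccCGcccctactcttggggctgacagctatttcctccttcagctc
Alox5ap intron, chr5:149268191-149268490, plus strand: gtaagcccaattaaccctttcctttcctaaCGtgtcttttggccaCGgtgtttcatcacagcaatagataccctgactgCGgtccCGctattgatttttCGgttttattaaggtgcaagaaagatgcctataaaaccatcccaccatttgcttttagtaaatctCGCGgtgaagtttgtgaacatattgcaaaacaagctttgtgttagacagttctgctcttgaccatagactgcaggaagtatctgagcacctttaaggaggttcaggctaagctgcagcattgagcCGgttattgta
Alox5ap intron, chr5:149278791-149279090, plus strand: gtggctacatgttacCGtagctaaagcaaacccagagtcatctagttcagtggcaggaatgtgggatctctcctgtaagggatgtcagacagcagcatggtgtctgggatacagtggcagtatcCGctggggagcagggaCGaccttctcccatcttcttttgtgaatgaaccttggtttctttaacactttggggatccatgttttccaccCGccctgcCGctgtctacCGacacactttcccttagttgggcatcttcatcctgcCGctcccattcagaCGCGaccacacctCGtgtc
Ptger4 intron, chr15:5241191-5241490, minus strand: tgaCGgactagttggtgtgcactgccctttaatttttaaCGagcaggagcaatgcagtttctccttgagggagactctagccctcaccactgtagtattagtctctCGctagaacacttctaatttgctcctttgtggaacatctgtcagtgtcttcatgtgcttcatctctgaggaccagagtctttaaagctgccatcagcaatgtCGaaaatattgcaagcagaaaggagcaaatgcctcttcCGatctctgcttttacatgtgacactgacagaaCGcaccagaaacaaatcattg
The Ptgs2 stretch holds 13 CpGs and that of Ptgdr2 holds 4, against a median of 6 over 32851 RefSeq promoter stretches of this length. Of these stretches, 31.5% held at least 13 CpGs and 62.2% at least 4. The intron stretches held 8 and 10 CpGs for Alox5ap and 6 for Ptger4.

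Promoter methylation set the genes apart in saline mice. The 3 promoter windows of Ptgs2 averaged 1.36% ± 0.595 (SD, n = 3), those of Ptger4 3.07% ± 0.772 and those of Ptgs1 3.23% ± 0.774. Promoters of Lta4h (10.0% ± 0.132) and Alox5 (16.4% ± 2.14) came next. Ltc4s (35.9% ± 0.911), Ptgdr2 (43.5% ± 1.49) and Alox5ap (44.4% ± 1.38) had the highest levels, and the mice of the last pair overlapped. Within the Alox5 promoter the level ran from 3.33% just downstream of the start site to 46.4% in the window farthest upstream. Within that of Lta4h it ran from 0.799% just downstream of the start site to 32.4% in the window farthest upstream. Single promoter windows of Ptgdr2 reached 73.6%.

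In OVA vs. saline, the windows that changed lay mainly within the spans of 4 of these genes, and gains and losses were equal in number. A window was counted as a differentially methylated region (DMR) when a logistic test of its calls gave a Benjamini-Hochberg adjusted p under 0.01 and the levels differed by at least 10 percentage points. Of 155 windows tested, 24 were DMRs, 12 hyper and 12 hypo methylated, which is 15.5% of them, against 7.31% of all windows. Alox5ap alone held 7 of the hyper and 6 of the hypo methylated windows, and its 36 windows partly overlap. The excess over the share of all windows rests largely on this gene. Over all windows gains exceeded losses, at 4.75% and 2.56%. The DMRs formed 11 regions, 5 higher and 6 lower, in 5 genes: Alox5, Alox5ap, Ltc4s, Ptgdr2 and Ptger4.

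None of the 35 promoter windows of the 10 genes was a DMR in any of the 3 comparisons. When windows at the start site of any RefSeq gene were counted, 2 of 48 were DMRs in OVA vs. saline (4.17%), against 3.63% of all such windows, and both lay downstream of Ltc4s at the start site of the microRNA gene Mir6919. Among the 35, the largest difference in OVA vs. saline was in a Lta4h window, where the level fell by 8.92 percentage points. Of the 24 DMRs, 22 lay within a gene's span, of which 13 were in introns and 9 overlapped exons, and 2 lay in a downstream flank. Partly methylated windows, with a saline mean of 20 to 80%, held 22 of them, which is 22.4% of the 98 such windows tested, against 11.3% of all such windows. Alox5ap, with 26 windows at this level, weighs heavily in this share too.

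**Figure D1:**
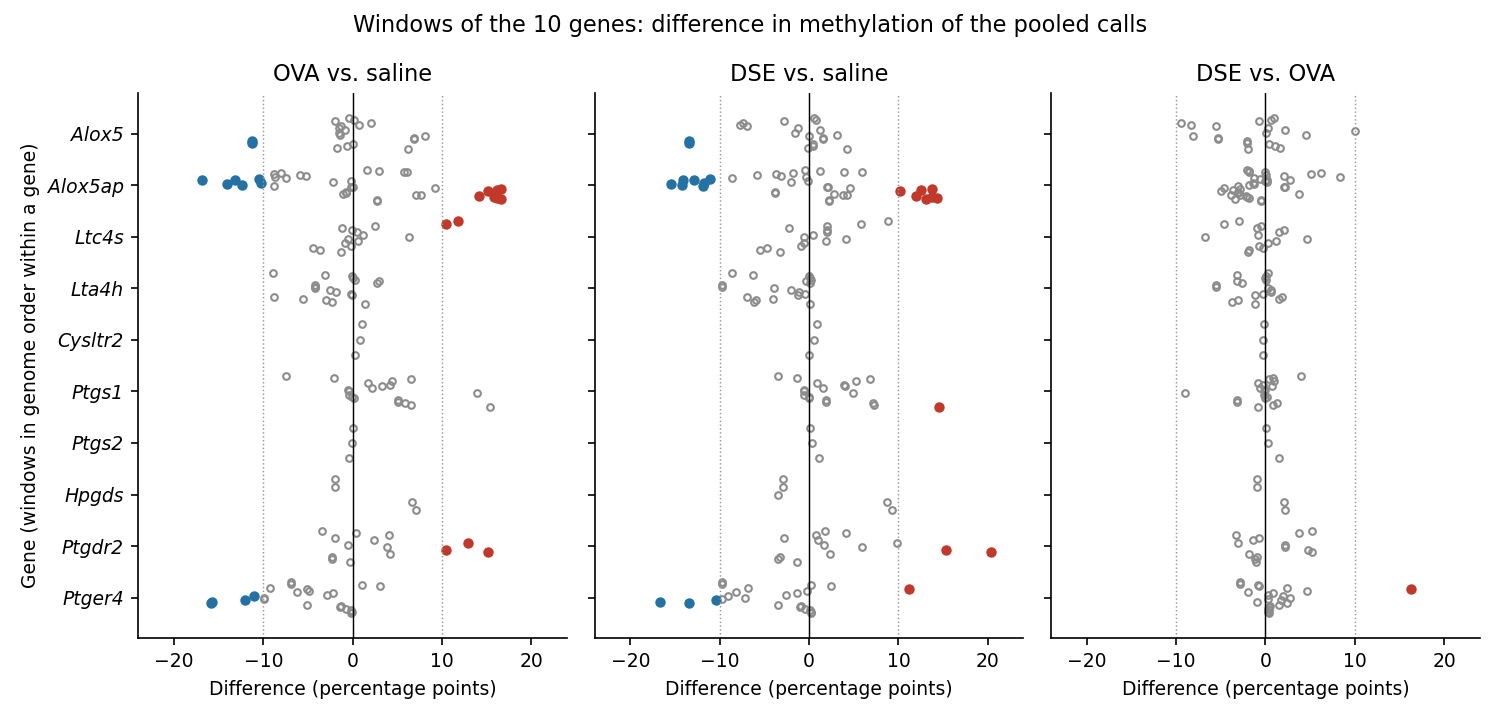
Difference in methylation level (percentage points, x axis) of each window of the 10 genes (y axis, windows in genome order within a gene) in the 3 comparisons. Filled points are DMRs, red higher and blue lower, and dotted lines mark 10 points; DSE vs. OVA had 1 DMR, OVA vs. saline 24 and DSE vs. saline 23.

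The logistic test counts calls and leaves out the spread between mice, so limma on M-values (log ratios of methylated to unmethylated calls) of all 10 mice was set beside it. By limma 11 of 155 windows passed an adjusted p of 0.05, against 3.2% of all windows. Alox5ap held 6 of the 11, and all 11 were among the 24 DMRs. The 3 OVA-induced and 3 saline mice did not overlap in any of the 24 DMRs. These windows were chosen for a difference between the same mice, so their separation, here and in the genes below, is no further support. Over all 155 windows the 2 groups did not overlap in 49 (31.6%), against 26.9% of all windows.

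Libraries of whole lung cannot separate a change in the mixture of cells from a change within them. Marker promoters moved between the groups in the same mice. Promoters of 8 pan-leukocyte genes averaged 48.1 to 49.2% in saline, 37.1 to 41.9% in the OVA-induced and 37.7 to 40.4% in the DSE-treated mice. By limma (adjusted p under 0.05) 4 of 8 were lower in OVA vs. saline and 6 of 8 in DSE vs. saline. Of all promoters, 6.91% and 16.7% changed in these comparisons. Endothelial promoters (4 of 6 listed genes measured) went from 21.7 to 24.9% in saline up to 26.8 to 29.8% in the OVA-induced and 25 to 26.9% in the DSE-treated mice, with 2 of 4 higher in OVA vs. saline. Their part in the results below was not tested.

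Alox5ap, whose product presents arachidonic acid to the Alox5 enzyme, carried 13 of the 24 DMRs, 6 lower and 7 higher. The losses lay in its 5′ part and the gains in its 3′ part. Counted from the start site to window midpoints, the lower windows fell between 1997 and 9997 bp and the higher windows between 13997 and 23497 bp. Its mean over 33 windows was almost level, at 63.6% ± 1.39 in saline, 64.0% ± 0.801 in the OVA-induced and 63.7% ± 1.17 in the DSE-treated mice (OVA vs. saline 0.37 points, SE 0.932; limma, adjusted p = 0.81). With pooled calls, which weight windows by their coverage, it was 4.29 points higher in DSE vs. saline and passed (limma, adjusted p = 0.0343).

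The first region lower in OVA vs. saline was in the first part of the gene (chr5:149266501-149268500, intron), from which an Alox5ap stretch is printed above. In its window at 2997 bp the saline mice measured 75.4, 71.3 and 63.8%, the OVA-induced mice 50.9, 59.1 and 50.5%, and the DSE-treated mice 54.7, 59.3, 53.1 and 57.1%. All saline mice lay above all other mice. The pooled level fell by 16.9 percentage points in OVA vs. saline (limma, adjusted p = 0.043) and fell by 14.1 in DSE vs. saline (limma, adjusted p = 0.0383). The overlapping window at 2497 bp passed in both comparisons (fell by 13.2 and fell by 12.9 points; limma, adjusted p = 0.0465 and 0.0277), and that at 1997 bp in DSE vs. saline (fell by 11.1 points; limma, adjusted p = 0.0331).

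At 9497 bp (chr5:149274001-149275500, intron) Alox5ap measured 78.1, 75.1 and 75.1% in saline, 66.1, 63.3 and 56.0% in the OVA-induced and 64.2, 59.8, 63.7 and 55.0% in the DSE-treated mice. Again no saline mouse overlapped with the others. The level fell by 14.1 points in OVA vs. saline (limma, adjusted p = 0.0415) and fell by 15.4 in DSE vs. saline (limma, adjusted p = 0.0195), and the overlapping window at 9997 bp fell by 14.3 in DSE vs. saline (limma, adjusted p = 0.0299). Between these lay a window that overlaps an exon, at 6997 bp, with 96.4, 99.1 and 93.9% in saline, 87.1, 93.2 and 81.5% in the OVA-induced and 82.3, 82.0, 89.8 and 84.5% in the DSE-treated mice. OVA replicate 2 came within 1 point of saline replicate 3, and the loss of 10 points in OVA vs. saline was no longer a DMR without OVA replicate 3, where the level fell by 6.54 points, or without saline replicate 2, where it fell by 9.0 points. In DSE vs. saline it fell by 11.7 points (limma, adjusted p = 0.0299).

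The Alox5ap gains started at chr5:149278501-149280500. In the window at 13997 bp, which overlaps an exon and holds 22 CpGs, saline mice measured 42.8, 35.4 and 45.9%, OVA-induced mice 52.9, 57.7 and 62.8% and DSE-treated mice 53.6, 56.4, 51.9 and 57.5%. All 7 OVA-exposed mice were above the 3 saline mice. The gain was 16.6 points in OVA vs. saline (limma, adjusted p = 0.0423) and 13.8 points in DSE vs. saline (limma, adjusted p = 0.0429).

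The last Alox5ap region (chr5:149286501-149289000) reached past the end of the gene. Its window at 22997 bp had 3701 to 4831 calls in a mouse. Saline mice measured 47.9, 41.1 and 39.7%, OVA-induced mice 56.7, 55.5 and 64.8%, and DSE-treated mice 50.9, 59.0, 59.8 and 59.5%. The gain was 16.2 points in OVA vs. saline (limma, adjusted p = 0.0489) and 14.3 points in DSE vs. saline (limma, adjusted p = 0.0406), with no overlap of either group with saline. The overlapping window at 22497 bp gained 15.9 and 13.7 points (limma, adjusted p = 0.0434 and 0.037). The largest gain of this region in OVA vs. saline, 16.6 points at 23497 bp, rested on 71 to 201 calls a mouse and was not a DMR without saline replicate 3 (11.6 points; logistic test, adjusted p = 0.032).

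**Figure D2:**
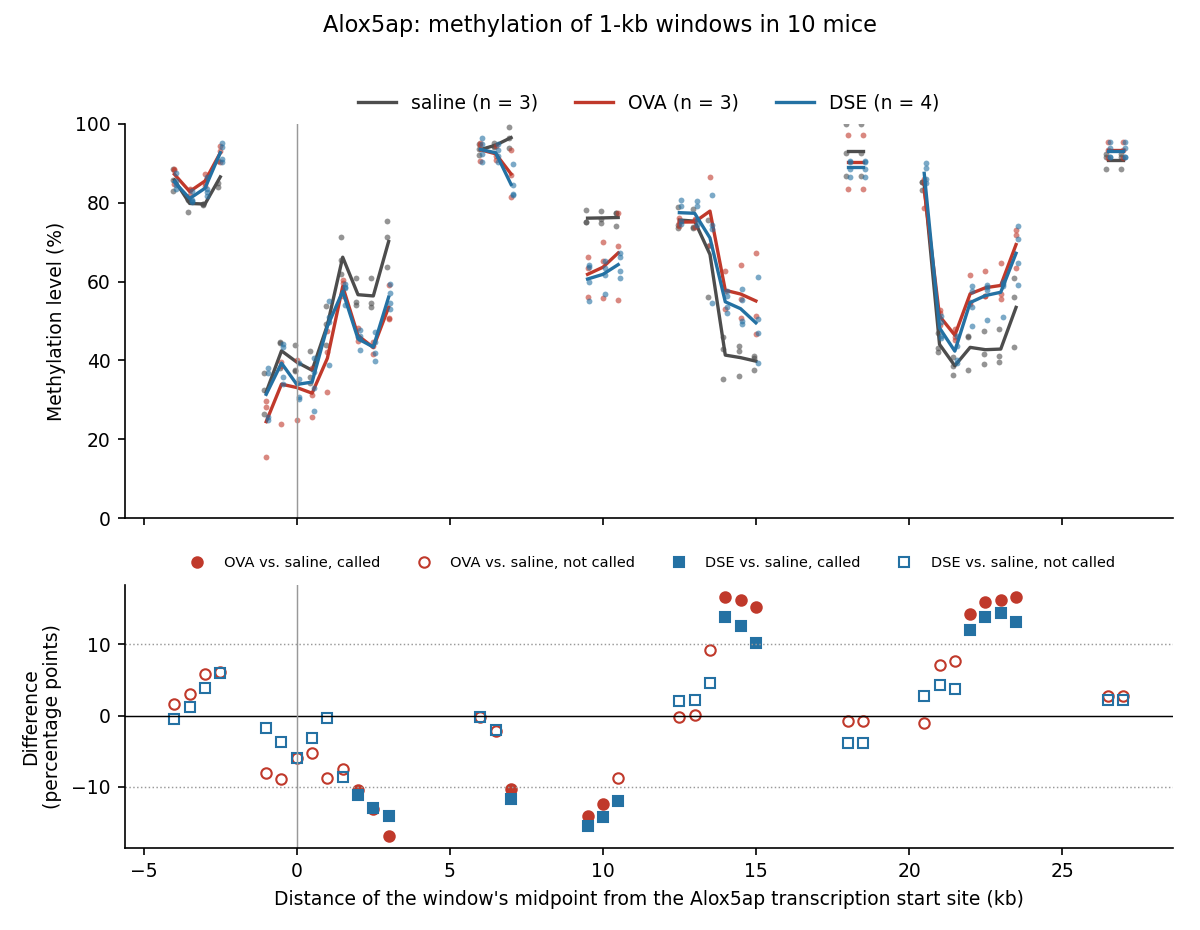
Methylation level (%, upper panel) of Alox5ap windows by distance from the start site (kb), with 1 point per mouse and a line through each group's mean, and the difference from saline in percentage points (lower panel). Filled symbols are DMRs, which in OVA vs. saline lie below 0 at 1997 to 9997 bp and above 0 at 13997 to 23497 bp.

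Alox5 encodes the lipoxygenase that starts leukotriene synthesis, and its only DMR region was in an intron (chr6:116458001-116459500), 2677 bp from the start site. Saline mice measured 58.5, 54.4 and 59.4%, OVA-induced mice 45.1, 44.7 and 48.6%, and DSE-treated mice 47.0, 43.8, 47.5 and 38.5%. Every saline mouse was above every other mouse. The level fell by 11.3 points in OVA vs. saline (limma, adjusted p = 0.0727) and fell by 13.4 in DSE vs. saline (limma, adjusted p = 0.028). The 2 windows of the region held the same calls, so they count as 1 measurement.

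Ltc4s encodes the synthase of the cysteinyl leukotrienes. Its windows at the gene itself held no DMR, and its 2 DMRs lay in the downstream flank (chr11:50230501-50232000), where the annotation places the gene Mgat4b and the start site of Mir6919. At 7531 bp saline mice measured 55.4, 56.6 and 60.0%, OVA-induced mice 65.6, 69.5 and 72.1%, and DSE-treated mice 69.0, 66.1, 63.5 and 64.9%. The 3 saline mice were the lowest. The gain was 11.8 points in OVA vs. saline (limma, adjusted p = 0.046) and 8.85 points in DSE vs. saline, which did not reach the DMR threshold. The overlapping window at 7031 bp gained 10.4 points in OVA vs. saline (limma, adjusted p = 0.0484).

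Lta4h, the hydrolase that makes leukotriene B4, had no DMR. Its largest difference in OVA vs. saline was in the promoter window farthest upstream, centred 1395 bp before the start site (chr10:93451501-93452500), where saline mice measured 33.2, 31.7 and 32.2%, OVA-induced mice 25, 23.0 and 22.4%, and DSE-treated mice 27.2, 23.1, 23.7 and 21.2%. Saline mice stood above all others by over 4 points. The level fell by 8.92 points in OVA vs. saline (limma, adjusted p = 0.0522) and fell by 8.62 in DSE vs. saline (limma, adjusted p = 0.0345). The window 500 bp closer, at 895 bp before the start site, was at 18.3, 17.5 and 18.5% in saline, 17.6, 14.0 and 14.0% in the OVA-induced and 13.0, 12.1, 11.0 and 11.3% in the DSE-treated mice, and the DSE-treated mice were separate from saline (limma, adjusted p = 0.0229). A larger difference in DSE vs. saline, 9.71 points lower, was in an intron window at 2105 bp with 64 to 105 calls a mouse, where saline mice measured 72.7, 94.9 and 79.7%, OVA-induced mice 88.0, 77.8 and 67.8%, and DSE-treated mice 70.5, 83.1, 57.9 and 76.0%. The groups overlapped there, and the window did not pass by limma (adjusted p = 0.365).

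Over its 6 promoter windows Lta4h fell by 2.49 points in DSE vs. saline (SE 0.417; limma, adjusted p = 0.00923). The loss lay in the windows at 1395 and 895 bp before the start site. Windows at 395 bp before and 105 and 605 bp after it averaged 0.964, 0.799 and 0.803% in saline. In the DSE-treated mice they averaged 0.908, 0.839 and 1.05%. Saline mice averaged 10.2, 9.97 and 9.96%, OVA-induced mice 9.17, 8.29 and 8.25% and DSE-treated mice 8.24, 7.64, 7.47 and 6.87%. The 3 groups did not overlap, though the OVA-induced and DSE-treated mice almost met, and OVA vs. saline (fell by 1.47 points; limma, adjusted p = 0.0843) and DSE vs. OVA (fell by 1.01 points; limma, adjusted p = 0.287) did not pass. Lta4h was the single one of 8 measured promoters to change in DSE vs. saline, where 16.7% of all promoters did. None of the 8 changed in OVA vs. saline, against 6.91% of all promoters. At an unadjusted p under 0.05 (limma) there were 2 of the 8, Lta4h and Alox5ap, against 4744 of all 19140 promoters. The Alox5ap promoter mean fell by 7.34 points in OVA vs. saline, from 44.4 to 37.1% (limma, adjusted p = 0.152). The mice of these 2 groups did not overlap there, while the DSE-treated mice (40.9%) overlapped with saline.

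Cysltr2, a receptor for cysteinyl leukotrienes, was measured only in 3 intron windows that overlap Gm9199, and they were almost fully methylated. Their mean was 90.6, 91.4 and 90.6% in saline, 90.5, 92.6 and 91.7% in the OVA-induced and 91.3, 90.4, 90.4 and 92.8% in the DSE-treated mice. The groups overlapped throughout, and the pooled levels of a window differed by less than 1 point in every comparison.

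Neither cyclooxygenase gene had a DMR in OVA vs. saline. Ptgs2, the inducible cyclooxygenase, was measured only at its promoter, part of which also holds the start of Ptgs2os, and levels were 1.25, 0.835 and 2.01% in saline, 1.1, 1.31 and 1.30% in the OVA-induced and 2.28, 2.23, 1.71 and 1.04% in the DSE-treated mice. The OVA-induced mice lay within the range of the saline mice, and the DSE-treated mice reached beyond it at the top by less than 1 point. In the window at 470 bp, 0 of 168 calls were methylated in saline replicate 2 and 0 of 151 in DSE replicate 4, which allows up to 1.79% and 1.99%.

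Ptgs1 encodes the constitutive cyclooxygenase. Its span in RefSeq starts well before the start site of its curated transcripts, so that windows upstream of the span lay 15425 to 18925 bp before that site. Windows at 7425, 7925 and 8425 bp before the site lay within the span and were counted as introns. One intron window (chr2:36244001-36245000), with 30 to 67 calls a mouse, was a DMR in DSE vs. saline. Saline mice measured 18.0, 24.4 and 6.06%, OVA-induced mice 6.67, 36.7 and 43.8%, and DSE-treated mice 32.8, 42.9, 22.9 and 26.6%. All groups overlapped, the 95% Wilson interval of the lowest saline mouse ran from 1.68 to 19.6%, and the gain of 14.6 points did not pass by limma (adjusted p = 0.31). It was not a DMR without saline replicate 1 or 3 or DSE replicate 1 or 2, with gains of 10.6 to 15.3 points. An upstream Ptgs1 window at 16425 bp, with 7.31, 5.91 and 8.81% in saline, 10.9, 12.1 and 11.9% in the OVA-induced and 9.82, 12.3, 10.9 and 12.8% in the DSE-treated mice, was separate from saline in both groups and passed in DSE vs. saline (3.92 points; limma, adjusted p = 0.042).

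Hpgds, the synthase of prostaglandin D2 in mast cells and T helper cells, had no DMR. In its window at 6729 bp, which overlaps an exon (chr6:65137501-65138500), saline mice measured 69.9, 71.5 and 73.0%, OVA-induced mice 76.9, 80.2 and 79.2%, and DSE-treated mice 81.5, 80.9, 79.2 and 81.7%. The saline mice were the 3 lowest. The gain was 7.04 points in OVA vs. saline (limma, adjusted p = 0.0618) and 9.25 points in DSE vs. saline (limma, adjusted p = 0.0174). The overlapping Hpgds window at 7229 bp gained 8.68 points in DSE vs. saline (limma, adjusted p = 0.0199).

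Ptgdr2, the prostaglandin D2 receptor of T helper 2 cells and eosinophils, gained methylation downstream of its promoter, while its promoter level overlapped between all groups. In the window at 4341 bp (region chr19:10940501-10942000, where the annotation also places Ccdc86), saline mice measured 29.8, 31.6 and 29.2%, OVA-induced mice 40.7, 49.5 and 45.9%, and DSE-treated mice 39.6, 54.2, 50.9 and 57.8%. The lowest OVA-exposed mouse stood almost 8 points above the highest saline mouse. The gain was 15.1 points in OVA vs. saline (limma, adjusted p = 0.0768) and 20.4 points in DSE vs. saline (limma, adjusted p = 0.0215), the largest difference of any DMR of the 10 genes. The overlapping window at 3841 bp gained 15.3 points in DSE vs. saline (limma, adjusted p = 0.0244).

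Nearer the Ptgdr2 start site, at 2341 bp (chr19:10939001-10940000), saline mice measured 34.3, 35.1 and 22.7%, OVA-induced mice 42.1, 39.0 and 48.7%, and DSE-treated mice 42.3, 38.0, 37.0 and 42.6%. Saline replicate 3 was far below the other 2 saline mice. The gain of 12.9 points in OVA vs. saline became 8.59 points, and no DMR, without that mouse. Over all 14 windows Ptgdr2 gained 3.68 points in DSE vs. saline (SE 1.1; limma, adjusted p = 0.0431) and 3.01 in OVA vs. saline (SE 1.18; limma, adjusted p = 0.11).

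**Figure D3:**
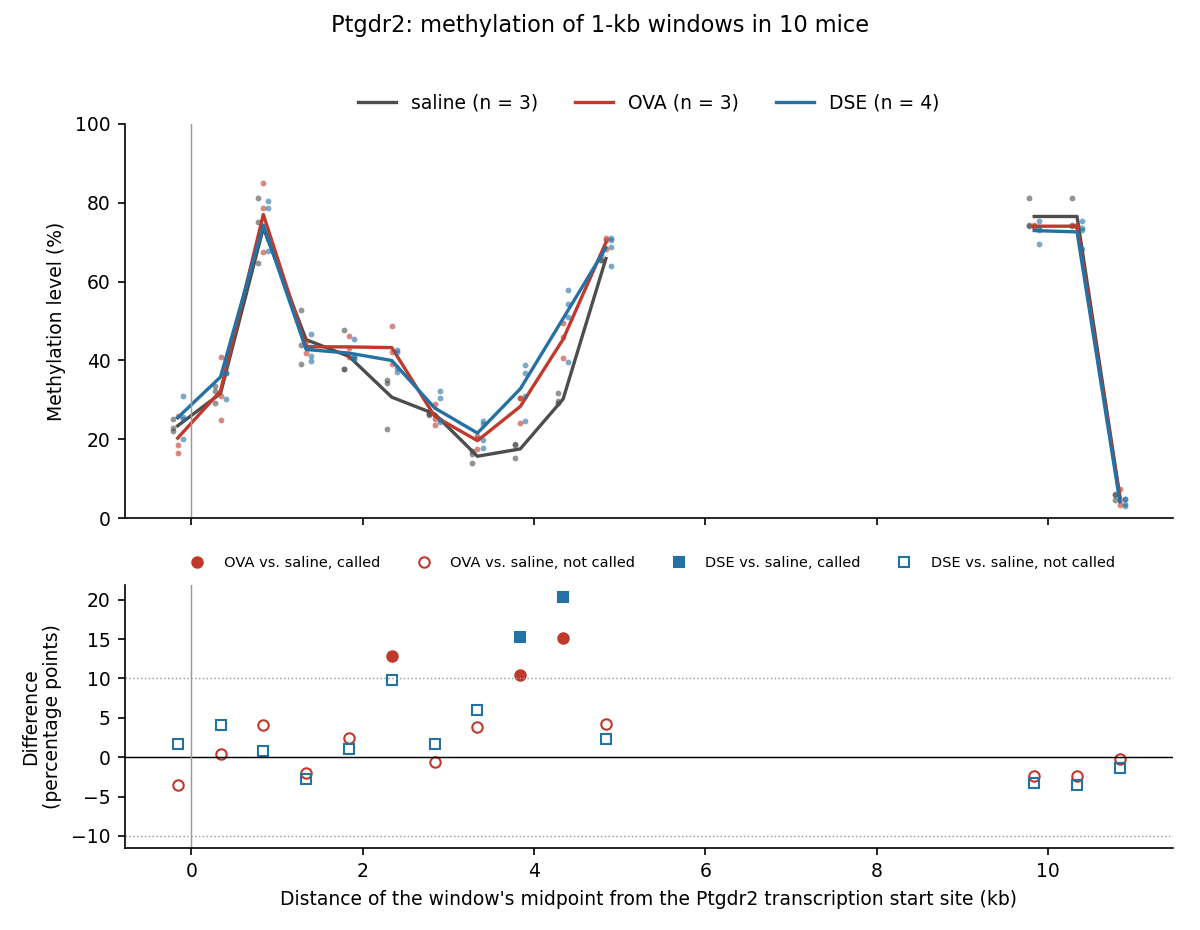
Methylation level (%, upper panel) of Ptgdr2 windows by distance from the start site (kb), with 1 point per mouse and a line through each group's mean, and the difference from saline in percentage points (lower panel). At 3841 and 4341 bp the OVA-induced and DSE-treated mice lie above all 3 saline mice. The pooled levels of the 2 groups at 4341 bp were 15.1 and 20.4 points above that of saline.

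Ptger4, a prostaglandin E2 receptor, was the only one of the 10 whose mean over all its windows changed in OVA vs. saline, where 13.6% of all genes did. Its 23 windows averaged 42.5, 40.0 and 41.2% in saline, 37.5, 35.6 and 34.9% in the OVA-induced and 37.6, 37.3, 38.1 and 36.1% in the DSE-treated mice. All saline mice were above all OVA-exposed mice. The mean fell by 5.19 points in OVA vs. saline (SE 0.918; limma, adjusted p = 0.0123) and fell by 3.94 in DSE vs. saline (SE 0.859; limma, adjusted p = 0.0156), while the median of all genes rose by 1.00 and 1.05 points.

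The strongest Ptger4 loss was in the intron 2686 to 3686 bp from the start site (chr15:5240001-5242000), beside a promoter below 7% methylation in every window's saline mean. At 2686 bp, the window of the stretch printed above, saline mice measured 53.5, 50.8 and 49.0%, OVA-induced mice 35.8, 36.5 and 32.5%, and DSE-treated mice 37.7, 36.5, 39.6 and 36.6%. The gap between saline and the other mice was over 9 points, and each group lay close together. The level fell by 15.9 points in OVA vs. saline (limma, adjusted p = 0.0241) and fell by 13.5 in DSE vs. saline (limma, adjusted p = 0.0148).

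In the next Ptger4 window, at 3186 bp, saline mice measured 77.8, 79.3 and 74.0%, OVA-induced mice 65.0, 61.2 and 56.3%, and DSE-treated mice 60.4, 59.4, 63.1 and 58.2%. All saline mice were again above all others, and the level fell by 15.7 points in OVA vs. saline (limma, adjusted p = 0.0254) and fell by 16.7 in DSE vs. saline (limma, adjusted p = 0.0123). The window at 3686 bp fell by 12.1 points in OVA vs. saline (limma, adjusted p = 0.04) and fell by 10.4 in DSE vs. saline (limma, adjusted p = 0.0366). At 5186 bp the level fell by 11.0 points in OVA vs. saline (73.5% ± 4.05 to 62.7% ± 3.41), with limma adjusted p = 0.0825. It was no DMR without OVA replicate 3 (fell by 9.23 points) or saline replicate 3 (fell by 8.32 points). The windows at 4186 and 6686 bp fell by 9.73 points and fell by 8.19 points in DSE vs. saline, under the DMR threshold (limma, adjusted p = 0.0466 and 0.0479).

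**Figure D4:**
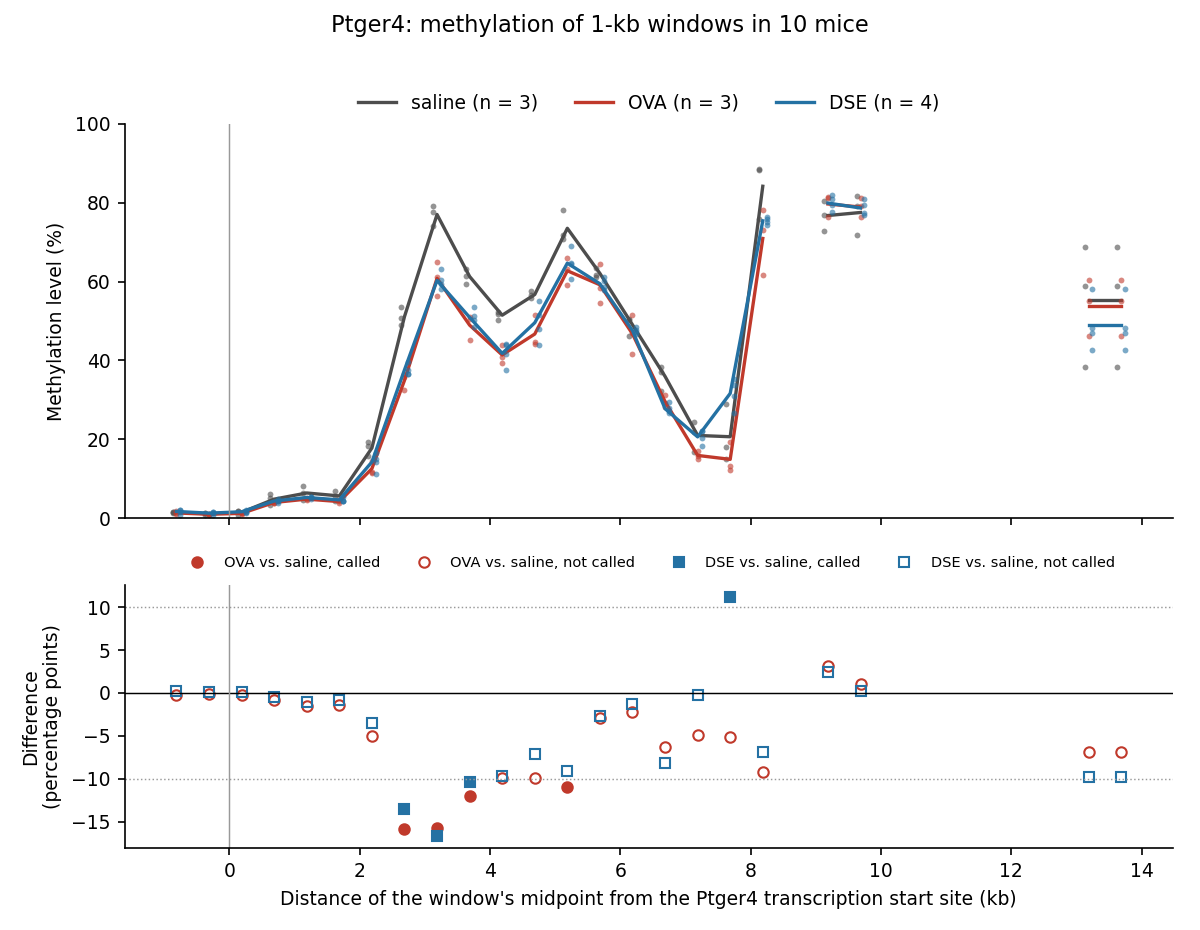
Methylation level (%, upper panel) of Ptger4 windows by distance from the start site (kb), with 1 point per mouse and a line through each group's mean, and the difference from saline in percentage points (lower panel). Losses of up to 16.7 points lie 2686 to 3686 bp from the start site in both groups, and the DSE-treated mice lie above the OVA-induced mice at 7686 bp.

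In DSE vs. OVA, which asks what the extract changed in OVA-induced mice, 1 of 156 windows was a DMR, against 1.62% of all windows. It was in the Ptger4 intron at 7686 bp (chr15:5236001-5237000). OVA-induced mice measured 12.4, 19.2 and 13.2%, DSE-treated mice 35.3, 26.6, 33.8 and 30.9%, and saline mice 18.1, 28.9 and 15%. The DSE-treated mice were above all OVA-induced mice, and DSE replicate 2 fell below saline replicate 2. The gain was 16.4 points in DSE vs. OVA (limma, adjusted p = 0.0972) and 11.2 points in DSE vs. saline (limma, adjusted p = 0.108), the latter no DMR without DSE replicate 1 (9.81 points) or saline replicate 3 (8.18 points). With 531 to 1069 calls a mouse, the 95% Wilson interval of saline replicate 1 was 15.3 to 21.4%.

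No window of the 10 genes passed limma in DSE vs. OVA, where 0.382% of all windows did. Mice of the 2 groups did not overlap in 15 of 156 windows, against 10.5% of all windows. Of the windows past the adjusted p of the logistic test, the one nearest below the 10-point threshold was in an Alox5 intron window 43677 bp from the start site, chosen after its values were seen, with 70.5, 61.7 and 67.3% in the OVA-induced and 60.9, 56.8, 55.6 and 54.5% in the DSE-treated mice. The groups were separate by less than 1 point, and the level fell by 9.41 points (limma, adjusted p = 0.247). None of the 10 gene means or 8 promoter means changed in DSE vs. OVA (limma, adjusted p under 0.05). Over all genes 0% of gene means and 2.23% of promoter means did. At an unadjusted p under 0.05 (limma) there were 0 gene means and 1 promoter mean of the 10 genes. Over all genes there were 2059 of 22365 gene means and 2966 of 19140 promoter means.

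In DSE vs. saline, 23 of 156 windows were DMRs, 11 higher and 12 lower, against 8.01% of all windows (4.95% higher, 3.07% lower). Alox5ap held 7 of the higher and 7 of the lower DMRs. By limma 23 of 155 windows passed in DSE vs. saline, against 6.59% of all windows. This comparison shares the saline mice with OVA vs. saline, so the 20 windows that were DMRs in both are not independent evidence of each other. By gene means 3 of 10 changed, against 20.4% of all genes: Ptger4 and Ptgdr2, given above, and Lta4h. Lta4h averaged 41.1, 44.6 and 41.1% in saline, 40.3, 39.6 and 40.0% in the OVA-induced and 39.4, 39.6, 36.8 and 38.6% in the DSE-treated mice. The saline mice were above all others, and the mean fell by 3.64 points in DSE vs. saline (SE 1.01; limma, adjusted p = 0.0339).

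These calls on gene means depended on single mice and on the weighting of windows. Without saline replicate 1 Lta4h alone passed, and without saline replicate 2, or any one of DSE replicates 2, 3 and 4, Ptger4 alone passed. With pooled calls the loss of Ptger4 in DSE vs. saline was smaller and did not pass (fell by 1.52 points; limma, adjusted p = 0.117). The loss of Ptger4 in OVA vs. saline passed under every alternative tried, with limma adjusted p of 0.00777 to 0.0476. When each mouse was centred on its median over all genes, the Alox5 mean passed in DSE vs. saline (fell by 3.25 points; limma, adjusted p = 0.0249) and that of Ptgdr2 did not (2.56 points; limma, adjusted p = 0.0897).

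**Figure D5:**
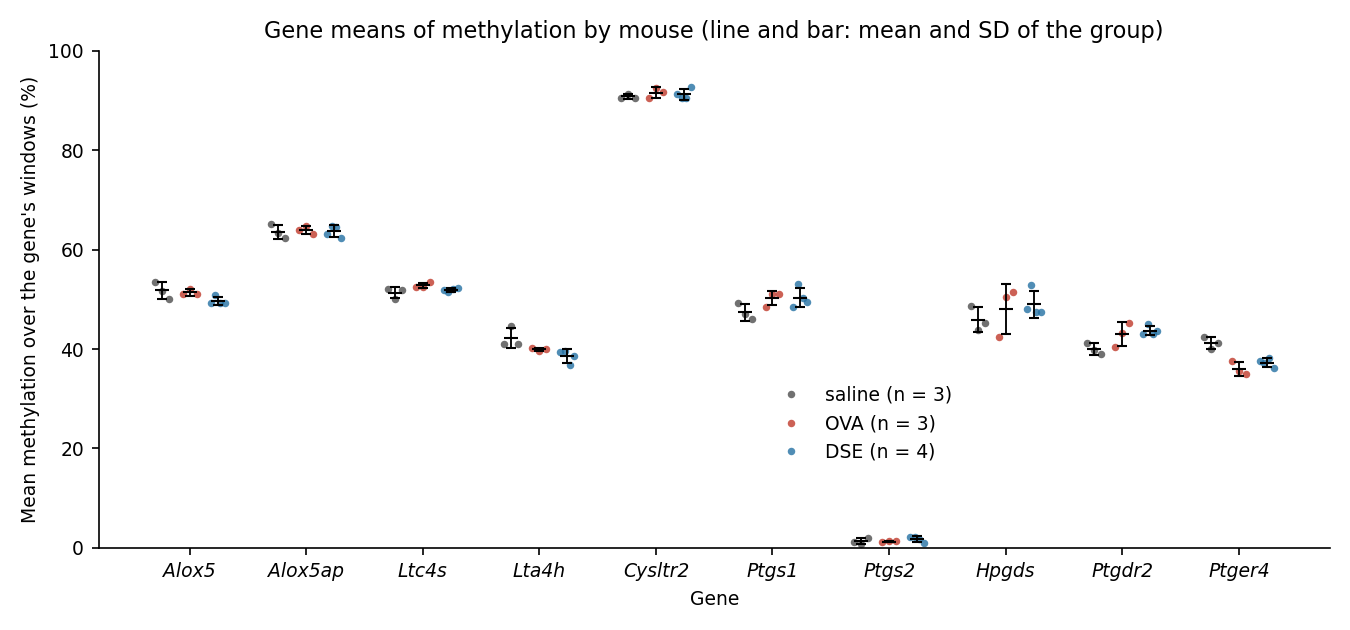
Mean methylation level (%) over the windows of each of the 10 genes, with 1 point per mouse and the mean and SD of each group in black. Ptger4 is the gene with the widest gap between saline (41.2% ± 1.25) and OVA-induced mice (36.0% ± 1.35), Ptgs2 stays near 0 and Cysltr2 near the top.

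Other genes of the pathway were counted from a list of 42 enzymes, transporters and receptors, all of which had windows. In OVA vs. saline 94 of 840 windows were DMRs, 47 higher and 47 lower (11.2%, against 7.31% of all windows), in 25 genes. By limma 55 windows passed, where 3.2% of all windows did. In DSE vs. OVA there were 1 higher and 4 lower of 838 windows (0.597%, against 1.62%), and none passed by limma. In DSE vs. saline 54 were higher and 71 lower of 844 windows (14.8%, against 8.01%), in 28 genes. There 85 windows passed by limma, where 6.59% of all windows did. Of the 42 gene means, 6 were higher and 4 lower in OVA vs. saline, where 13.6% of all gene means passed, and 10 were higher and 7 lower in DSE vs. saline, where 20.4% did (limma, adjusted p under 0.05), while none passed in DSE vs. OVA.

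The 5 genes of that list with the largest DMR differences in OVA vs. saline or DSE vs. OVA were Slco2a1, Tbxas1, Abcc1, Ptgir and Ptges. An intron window of Slco2a1, the prostaglandin transporter, was at 32.8% ± 5.93 in saline, 65.5% ± 17.1 in the OVA-induced and 61.6% ± 6.24 in the DSE-treated mice (OVA vs. saline 31.1 points; limma, adjusted p = 0.0885). An intron window of Tbxas1, which makes thromboxane, fell by 23.7 points in OVA vs. saline, from 87.1% ± 7.93 to 64.4% ± 14.2 (limma, adjusted p = 0.0996). An upstream window of Ptgir, the prostacyclin receptor, fell by 20.5 points (78.3% ± 5.08 to 58.4% ± 7.48; limma, adjusted p = 0.0653).

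An intron window of Ptges, the inducible prostaglandin E synthase, rose in the logistic test from 41.1% ± 9.06 to 59.8% ± 7.98 in OVA vs. saline (18.8 points; limma, adjusted p = 0.142). Abcc1, which exports leukotriene C4, fell by 21.1 points in DSE vs. OVA in an intron window at 56.6% ± 2.27 in saline, 57.9% ± 15 in the OVA-induced and 37.8% ± 11.2 in the DSE-treated mice (limma, adjusted p = 0.413). None of the 5 windows passed by limma, and the SD of the OVA-induced mice was over 14 points in the windows of Slco2a1, Tbxas1 and Abcc1. Some means of these genes did pass in OVA vs. saline. The Ptges gene mean rose by 5.65 points (limma, adjusted p = 0.0264). The Slco2a1 gene and promoter means rose by 3.43 and 3.90 points (limma, adjusted p = 0.0323 and 0.0459). The Tbxas1 promoter mean fell by 13.8 points (limma, adjusted p = 0.021). The Tbxas1 gene mean, the Ptges promoter mean and both means of Ptgir and Abcc1 did not pass. Over all genes 13.6% of gene means and 6.91% of promoter means passed.

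Markers of further cell types were read from the same promoters. T cell promoters (6 of 8 listed) averaged 72.4% in saline, 64.8% in the OVA-induced and 66.7% in the DSE-treated mice, with 1 lower in each comparison with saline by limma. Eosinophil promoters (6 of 7) averaged 62.0, 57.0 and 55.8%, mast cell promoters (3 of 6) 42.4, 39.3 and 38.7%, and the single macrophage promoter measured, Cd68, 55.6, 53.3 and 52.6%, with none changed. Csf3r, the single neutrophil promoter measured, was lower in OVA vs. saline (53.1 to 47.6%) and higher in DSE vs. OVA (54.0%). Of all promoters, 6.91% and 2.23% changed in these comparisons. B cell promoters (4 of 7) averaged 39.7, 40.2 and 41.1%.

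Lung epithelial promoters (7 of 9) averaged 41.3% in saline, 41.7% in the OVA-induced and 41.8% in the DSE-treated mice. Of these, 1 was higher in DSE vs. saline, where 16.7% of all promoters changed. Promoters of liver, heart and brain genes averaged 58.7, 61.3 and 61.4%, with 1 higher in OVA vs. saline, where 6.91% of all promoters changed. Sftpb and Scgb1a1 were among the epithelial genes without a measured promoter. The pan-leukocyte promoters were lower in both OVA-exposed groups, in which the DMRs of Alox5, Alox5ap, Ptgdr2 and Ptger4 were found, and their part in those DMRs was not tested.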

How the data were processed

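Lung Methyl-seq data of 10 mice were used: saline (n = 3), OVA-induced (n = 3) and DSE-treated (n = 4). According to the study's methods, the authors made libraries with the SureSelect Methyl-seq capture and bisulfite conversion. The submitters' processing notes name cutadapt 1.10, Bismark 0.19.0 and methylKit 1.0.0, and the paper's methods name other versions of these 3 tools; the build was mm10. The deposited values are counts of CpG calls, methylated and in all, per mouse and window of 1000 bp stepped by 500 bp, without normalization. Since capture keeps covered regions only, genes have few windows.

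Percentages were computed for mice with 20 or more calls in a window, which needed at least 2 such mice per group. The logistic likelihood ratio test of the pooled calls, without a term for overdispersion, and limma 3.58.1 were run over all windows, and limma over mean percentages of 22365 genes and 19140 promoters (within 1000 bp of a start site) in all 10 mice, each with Benjamini-Hochberg adjustment. PCR copies were not separated by molecular identifiers, so intervals and limits for 0, set at 3 calls, cover counting error only. The mice were taken as replicates as labelled. Tests were tried on simulated data. The text names all 10 genes and, within them, the strongest window of up to 3 regions per comparison, every window that passed limma and, for genes without a DMR, the window with the largest difference. For the 42 other genes, the 5 largest DMR differences in OVA vs. saline or DSE vs. OVA are named. Sequences and positions come from RefSeq, GRCm38.p6; Alox5ap had no promoter entry. Genes, lists and tests were chosen with earlier results of these data known. Alternatives covered call minimums, tests, thresholds, scaling, window overlap, gene span, a replicate block and leaving out each mouse.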

Additional observations from a re-analysis of the deposited data

Results flagged for a closer look

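Of 33 sets of 4 DSE-treated mice examined, 3 held a mouse far from the other 3, by the gap to its nearest neighbour over the whole range (above Dixon's 95% critical value); chance gives about 1 in 20. DSE replicate 2 stood above the others for the Alox5 gene mean, at 51.0% against 49.2 to 49.2%, and for the Hpgds gene mean, at 52.9% against 47.4 to 48.0%. DSE replicate 1 stood below the others in the Alox5ap window at 22997 bp, at 50.9% against 59.0 to 59.8%, which still lay above the 3 saline mice. Groups of 3 were not examined.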

How the results depend on the processing

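Counts of DMRs in the 10 genes depended on the test. In OVA vs. saline the 24 became 0 in an F test with overdispersion, which called 0 windows anywhere, 11 by limma with 10 points, 0 at a difference of 20 points and 11 in windows that do not overlap. In DSE vs. saline the 23 became 0, 1 and 12 under the F test, 20 points and windows that do not overlap, and in DSE vs. OVA the 1 became 0 under the F test, limma and 20 points. Leaving out 1 mouse at a time gave 19 to 28 DMRs in OVA vs. saline, 1 to 2 in DSE vs. OVA and 20 to 25 in DSE vs. saline. The cause was not tested.

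Gene means that passed limma numbered 1 to 2 in OVA vs. saline, 0 to 0 in DSE vs. OVA and 1 to 3 in DSE vs. saline when 1 mouse was left out, and promoter means 0 to 0, 0 to 0 and 1 to 2. With pooled calls, which weight windows by coverage, or their M-values, 3 gene means passed in DSE vs. OVA. The share of all genes at these settings is not given here, and the 0% above belongs to unweighted means. The sign was opposite to the unweighted mean for Alox5 (5.88 points, 0.42 in M) and Hpgds (-5.88 points, -0.36 in M). Windows of Hpgds differed by only -0.948 to 2.21 points, and those of Alox5 by -9.41 to 10.0 (median -0.35). Pooled levels also move with the division of a mouse's calls between windows, and that part was not tested. For promoters, pooled calls gave 1 (Lta4h) in OVA vs. saline and windows that do not overlap gave 1 (Lta4h) in DSE vs. OVA, while DSE vs. saline gave 2 (with Ltc4s) for the compared groups alone or after centring.

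A replicate block gave 24, 1 and 23 DMRs in OVA vs. saline, DSE vs. OVA and DSE vs. saline, and took the gene means called in DSE vs. saline from 3 to 0. Mice share only a number: deviations from the group means of same-numbered mice correlated at -0.03 to 0.08 over all windows, and not every mouse correlated best with its own number. All other alternatives left the counts within 1.5 times. Depth limited the intron window of Ptgs1, with 30 to 67 calls a mouse, and 6 windows with under 20 calls in some mouse.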
